A study of Mus musculus with 10 samples.

Results

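The 10 genes described here, of 23197 in the count table, encode transport, surface, secreted and intracellular proteins that were abundant in mouse cells with an extraembryonic endoderm (XEN) profile. They were chosen by measured values, namely their high level in the XEN-like cells of days 12 and 20 in the same table, so that level is given as a description and supports nothing. *Aqp8*, *Car4*, *Atp1b1*, *Ramp1* and *Igsf1* encode membrane proteins, *Wfdc1* and *Srgn* secreted or granule proteins, and *Gpx2*, *Bex4* and *Epas1* intracellular proteins, so transport and surface fits only some of them. Each of the 10 had a mean of over 100 CPM (the UMIs of the gene scaled in the usual way by the sum of all UMIs of the cell, without ERCC spike-in RNAs) at d20.

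Mouse embryonic fibroblasts (MEFs) of ICR embryos were reprogrammed with C6FAE, a cocktail of CHIR99021, the compound abbreviated 6, Forskolin, AM580 and EPZ004777, and single cells were picked by hand for RNA sequencing. The cells came from day 0, before the cocktail (d0), and from days 1, 2, 3, 4, 5, 6, 8, 12 and 20 of the course (d1 to d20, with the day 6 cells named d6p in the table), and further cells were picked from colonies on day 8 (d8c) and day 12 (d12c). The d12c cells numbered 1 to 24 (d12c early here) and 49 to 96 (d12c late) were described apart. All cells counted as 1 sample, because their names do not show which of the 10 listed samples they belong to, so groups are compared without replicates and without a test.

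Of 808 cells, the 670 with at least 4000 detected genes were kept. These were 72 d0 cells, 40 d1 cells, 83 d2 cells, 38 d3 cells, 77 d4 cells, 36 d5 cells, 86 d6 cells, 62 d8 cells, 20 d8c cells and 67 d12 cells, with 21 cells of d12c early, 30 of d12c late and 38 of d20. The median depth was 344196 UMIs at d0, 768565 at d12, 416789 at d12c early, 276240 at d12c late and 195480 at d20, so the groups with the highest levels of the members were also the shallowest. Intervals on UMI sums (exact Poisson) and on shares of cells (exact Clopper-Pearson) are at 95% and cover counting error only. Where no cell had a UMI, the limit given is instead 3 cells of the total, which is tighter than the exact upper bound.

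XEN cells derive from the primitive endoderm, the layer that forms the yolk sac. Yolk sac endoderm is an absorptive epithelium that takes up nutrients and moves ions, water and acid equivalents between the maternal side and the embryo. Water channels, membrane-bound carbonic anhydrase and the sodium pump are parts of such transport in many epithelia.

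The cell types were checked by marker lists. At d20 the 10 XEN markers summed to a mean of 1528 CPM, led by *Sox17* at 982 CPM, and the 10 fibroblast markers to 97.6 CPM, led by *Thy1* at 36 CPM with *Postn* at 0. Of the XEN markers 8 had a mean of 20 CPM or more at d20, against 1 at d0, *Dab2*. *Dab2* did not separate the groups, with 55.1 CPM at d0, 28.5 CPM at d12c late and 56.5 CPM at d20. *Amn* had 0.596 CPM at d20. At d12 the sums were 149 CPM for XEN markers and 9949 CPM for fibroblast markers, and at d12c late 1151 and 115 CPM. Epithelial markers summed to 2628 CPM at d20, led by *Krt8* at 1155 CPM, with 6 of 6 at a mean of 20 CPM or more. Their sum was 2001 CPM at d12c early, 816 CPM at d12 and 89.9 CPM at d0. The medians per cell were 242, 124 and 11.4 CPM in these groups and 2367 CPM at d20. *Krt19* was higher at d12c early (729 CPM) and d12 (364 CPM) than at d20 (283 CPM). Blood markers, relevant because *Srgn* is best known from blood cells, summed to 9.81 CPM at d20, all of it *Cd68*, with 7 of 8 genes at 0, *Ptprc* among them. Endothelial markers, relevant to *Epas1* and *Ramp1*, summed to 2.14 CPM, led by *Pecam1* at 1.14 CPM. The 5 gut markers, relevant to *Aqp8* and *Gpx2*, summed to 12.4 CPM, led by *Cdx2* at 10.3 CPM with *Lgals4* and *Fabp2* at 0. The d20 and d12c late cells therefore carried XEN and general epithelial markers, the latter not in these groups alone, with *Ptprc*, *Lgals4* and *Fabp2* at 0. The gut factor *Cdx2* had a low level at d20 and at d12c late (10.3 and 12.2 CPM) that d0 cells lacked. The other gut markers, *Vil1* and *Muc2*, had 1.42 and 0.675 CPM at d20 and none at d12c late. Of the blood markers, *Cd68* had 9.81 CPM at d20, 8.33 CPM at d12c late and 10.4 CPM at d0, and *Tyrobp* had 0.74 CPM at d12c late.

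*Aqp8* encodes a channel for water that also passes ammonia and hydrogen peroxide, and lies at chr7:130605808-130611517 (plus strand) on the NCBIM37 build. None of the 72 d0 cells had an *Aqp8* UMI, with a limit by the rule of 3 cells of 4.17% (exact upper bound 4.99%). At d20 its level ran from 7.85 to 12478 CPM with a median of 513 CPM, and every one of the 38 cells had a UMI. The highest d20 cell held 24.2% of the summed CPM, and the mean of 1354 CPM became 1054 CPM without it. With cells of at least 6000 genes the d20 mean was 544 CPM. At d12c late the level ran from 8.32 to 2922 CPM with a median of 364 CPM. The quartile ranges of both groups overlapped, so the order of d20 above d12c late, given by the means (1354 and 537 CPM), lay within the spread of the cells.

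*Car4* encodes a carbonic anhydrase anchored to the outer face of the membrane, which interconverts carbon dioxide and bicarbonate (chr11:84771288-84779546, plus strand). Up to d8c only 4 of 514 cells had a *Car4* UMI, all of them at d4, with a highest value of 4.49 CPM. The level ran from 0 to 2837 CPM with a median of 114 CPM at d12c late, and from 10.6 to 2837 CPM with a median of 329 CPM at d20. All 38 cells of d20 and 27 of 30 of d12c late had a UMI. *Car4* was thus the member with the fewest cells with a UMI before d12.

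*Atp1b1*, the beta subunit that brings the sodium pump to the plasma membrane (chr1:166367398-166388486, minus strand), was already present in fibroblasts. At d0 its mean was 34.1 CPM and its median 3.73 CPM, with a highest cell of 292 CPM and a UMI in 42 of 72 cells (58.3%, interval 46.1 to 69.8%). The mean was 10.2 CPM at d1 and 3.97 CPM at d2, then lay between 0.676 CPM (d6) and 5.14 CPM (d4) up to d8, and was 0.179 CPM at d8c. The share of cells with a UMI was 4.84% at d8 (interval 1.01 to 13.5%), although the median depth of d8, 676178 UMIs, was above that of d0. After thinning to 50000 UMIs per cell, *Atp1b1* was found in 25 of 71 cells of d0 and in 1 of 59 of d8. The level was therefore below that of d0 in each group from d1 to d12c early, and the gene stood at a median of 287 CPM at d12c late (15.5 to 647 CPM) and 258 CPM at d20 (0 to 907 CPM), levels that did not differ beyond the spread.

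*Ramp1* encodes a single-pass protein that forms the receptor for calcitonin gene-related peptide together with the product of *Calcrl* (chr1:93076399-93121773, plus strand). It too was found in fibroblasts, with a mean of 19.7 CPM and a UMI in 21 of 72 cells at d0, and a mean of 0.328 CPM and a UMI in 3 of 38 cells at d3. At d12c late it ran from 0 to 2091 CPM with a median of 386 CPM, and at d20 from 0 to 1941 CPM with a median of 438 CPM. *Ramp1* was uneven among the d20 cells, of which 9 were below 20 CPM and 25 at 100 CPM or more. In d0 cells numbered 1 to 48 and 49 to 96 the means were 41 and 23.9 CPM for *Atp1b1* and 21.7 and 16.7 CPM for *Ramp1*, so both were found in either number range.

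*Igsf1* encodes a membrane glycoprotein of the immunoglobulin superfamily, known for its role in the pituitary (chrX:47135713-47150926, minus strand). Its mean stayed at or below 1.07 CPM in each group up to d8c, and the d6 value of 1.07 CPM came from a single cell with 91.8 CPM. At d12c late its median was 6.4 CPM (0 to 643 CPM), with a UMI in 19 of 30 cells (63.3%, interval 43.9 to 80.1%). At d20 the median was 90.9 CPM (0 to 497 CPM), with a UMI in 34 of 38 cells (89.5%, interval 75.2 to 97.1%). After thinning, the shares were 42.3% and 80.6%. Many d12c late cells thus lacked *Igsf1* while they held other members, and the quartile ranges still overlapped those of d20.

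Among the secreted and granule proteins, *Wfdc1* encodes a small protein with a whey acidic protein domain (chr8:122190423-122212122, plus strand). It had no UMI in the 72 d0 cells and was found in 15 of 514 cells up to d8c. Its median was 144 CPM at d12c late (0 to 723 CPM) and 278 CPM at d20 (0 to 978 CPM). *Srgn* encodes serglycin, the core protein of an intracellular proteoglycan that packs secretory granules (chr10:61956581-61990199, minus strand). At d0 6 UMIs of *Srgn* were counted (interval 2.2 to 13.1), each in a different cell. At d6 it had a UMI in 26 of 86 cells, with a mean of 10.6 CPM, a median of 0 and a highest cell of 184 CPM. The median was then 1170 CPM at d12c late (0 to 3918 CPM) and 812 CPM at d20 (9.26 to 4777 CPM).

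*Gpx2* encodes a glutathione peroxidase best known from the gut epithelium (chr12:77893322-77896541, minus strand), and it was the member with the lowest level at d20 relative to d12c late. No UMI was found at d0, d1, d3, d5, d8 or d8c. The median was 683 CPM at d12c late (41.1 to 3113 CPM) and 196 CPM at d20 (8.3 to 1368 CPM), and the means were 878 and 305 CPM. The upper quartile of d20 (303 CPM) lay above the lower quartile of d12c late (228 CPM), so the groups overlapped. All cells of both groups had a *Gpx2* UMI.

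*Bex4* encodes a small protein of the brain-expressed X-linked family and lies with *Igsf1* on the X chromosome (chrX:132673535-132674982, plus strand). It was found in each group up to d8c, with means between 7.97 CPM (d8) and 32.5 CPM (d8c) and a UMI in 227 of 514 cells. The median was 0 at d0, d1, d3, d4, d6 and d8. At d6 the mean of 13.3 CPM became 4.33 CPM without the highest cell (772 CPM). At d20 it was the most even member, with a lowest cell of 56.4, a median of 367 and a highest cell of 771 CPM, and a coefficient of variation of 0.455 against 1.65 for *Aqp8*. The median was 487 CPM at d12c late (0 to 1119 CPM).

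*Epas1* encodes HIF-2α, a transcription factor that is stabilised when oxygen is low (chr17:87153247-87232750, plus strand). Its mean stayed at or below 5.06 CPM up to d8c, with that value at d6, where 32 of 86 cells had a UMI. The median was 24.5 CPM at d12c late (0 to 273 CPM) and 101 CPM at d20 (0 to 498 CPM). The share with a UMI was 80% at d12c late and 97.4% at d20, and 57.7% and 80.6% after thinning. *Epas1* and *Igsf1* were thus the members with the lowest shares of cells with a UMI at d12c late.

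**Figure D1:**
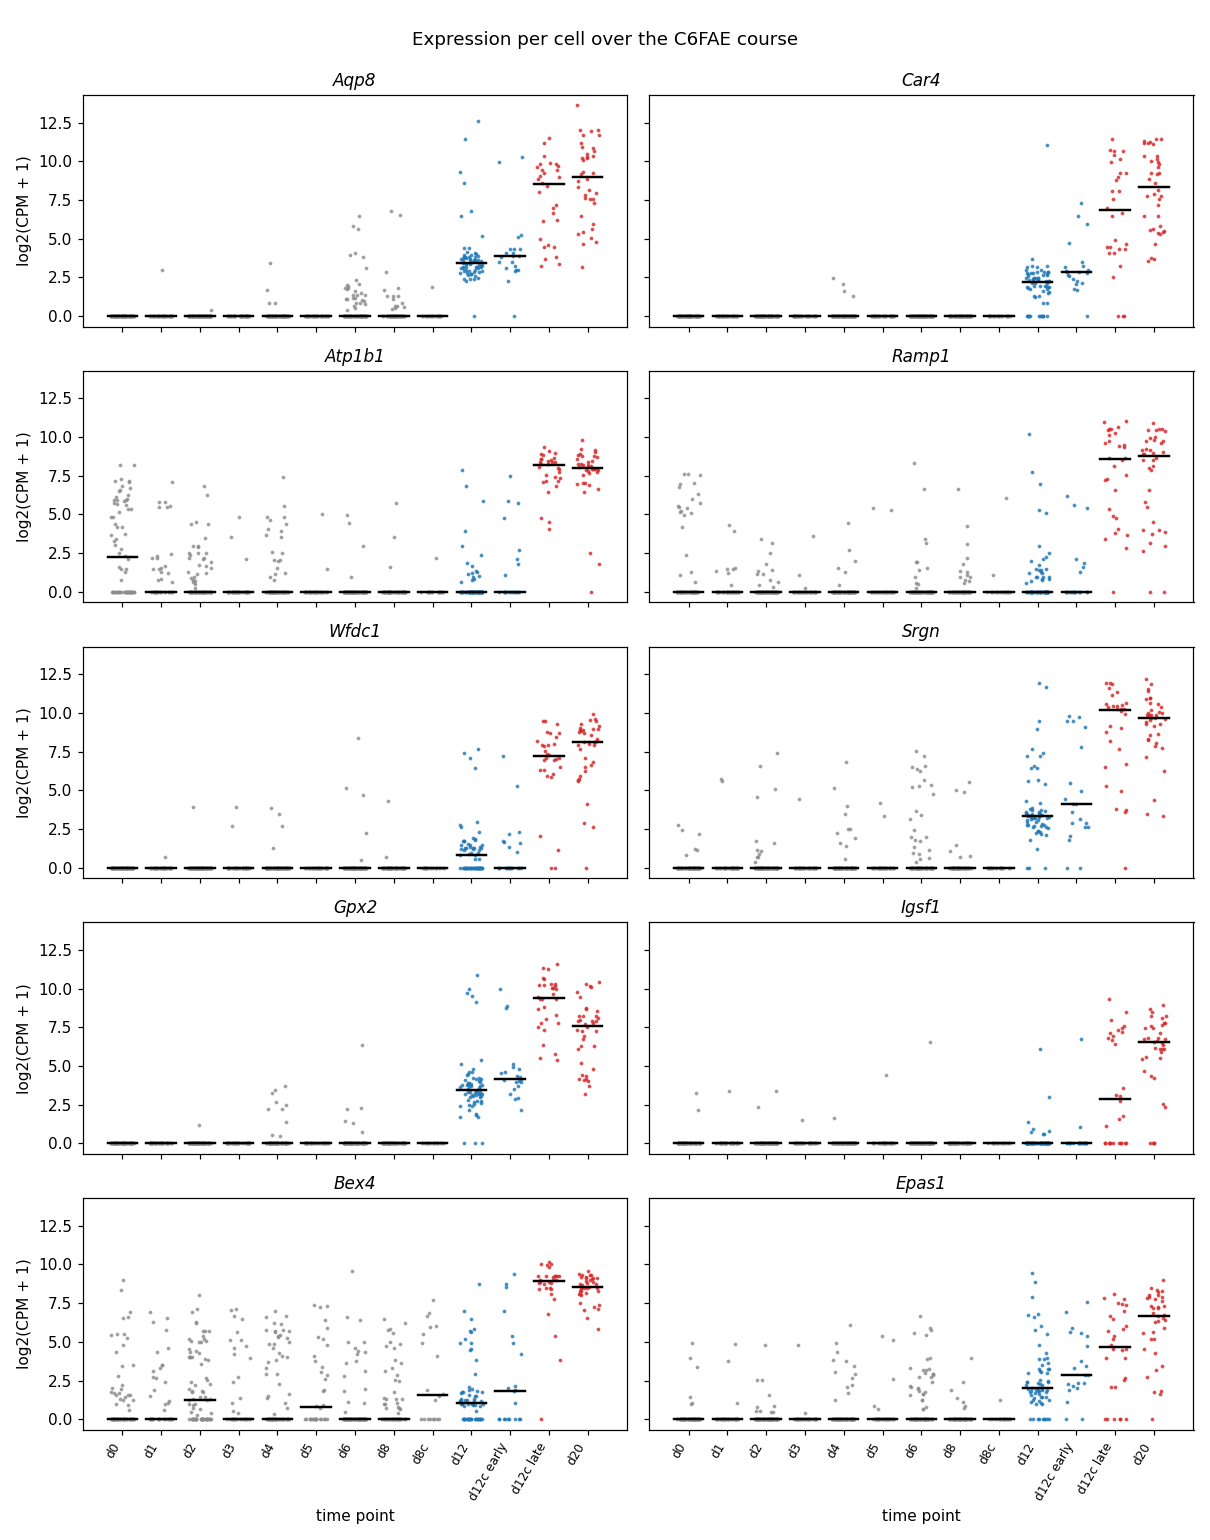
Expression of the 10 members in each kept cell over the course, as log2(CPM + 1). Points are cells, black lines are medians, grey marks d0 to d8c, blue d12 and d12c early, and red d12c late and d20. *Atp1b1*, *Ramp1* and *Bex4* show cells with high values at d0, and *Aqp8*, *Srgn* and *Gpx2* show a band of low values in nearly all d12 cells.

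Differences between groups were taken between means of log2(CPM + 1), and the share of all genes past the same limit covers those that averaged 1 or more on this scale in either group. At d20 against d0, 10 of 10 members were higher by over 2, where 4.38% of 9352 genes were. At d12c late against d12, 9 of 10 were higher by over 2, where 5.61% of 9648 genes were, and *Epas1* differed by 1.71. Both contrasts enter the choice of the members, and nothing is read from these counts. The differences between d20 and d0 ran from 4.75 for *Atp1b1*, which d0 cells expressed, to 9.03 for *Srgn*.

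Within the XEN-like cells, 4 of 10 members were higher by over 1 at d20 than at d12c late, where 14.9% of 8522 genes were. These were *Igsf1* (2.30), *Epas1* (1.73), *Car4* (1.59) and *Aqp8* (1.15). The members lower by over 1 numbered 1, *Gpx2* (-1.92), where 10.3% of genes were, a share near that of all genes. *Bex4* (0.05), *Atp1b1* (-0.16) and *Ramp1* (-0.17) lay close to 0. With cells of at least 6000 genes, the higher count was 1 and *Atp1b1* was at -1.43. With the log2 of mean CPM the higher count was 2. Depth differed between these groups, with medians of 276240 and 195480 UMIs. With cells thinned to 50000 UMIs, 3 members were higher and 1 was lower, and *Car4*, at 0.78, was no longer past the limit.

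Among fibroblast groups, 0 of 10 members were higher by over 1 at d8 than at d0, where 17.1% of 9557 genes were. Lower by over 1 were 2 members, *Atp1b1* (-2.64) and *Ramp1* (-1.09), where 13.7% of genes were. Only 3 members, these and *Bex4*, passed the filter on low values in this contrast. A mean of at least 5 CPM in some group up to d8c was reached by 5 members, namely *Atp1b1*, *Ramp1*, *Bex4*, *Srgn* and *Epas1*, the last 2 at d6.

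The d6 and d8 cells held early UMIs of some members and not of others. *Aqp8* had a UMI in 31 of 86 cells at d6 (36%, interval 26 to 47.1%) and 15 of 62 at d8 (24.2%, interval 14.2 to 36.7%), against 0 of 72 at d0 with median depths of 411772, 676178 and 344196 UMIs. The median was 1 UMI in the d6 and d8 cells that had any. Over all cells the means were 3.25 and 3.53 CPM, and 2.27 and 1.8 CPM without the highest cell of each group (85.7 and 109 CPM). After thinning, *Aqp8* was found in 6 of 81 cells at d6 and 4 of 59 at d8. *Car4* had no UMI in either group, with limits by the rule of 3 cells of 3.49% and 4.84% (exact upper bounds 4.2% and 5.78%). In d6 cells numbered 1 to 48 and 49 to 96, the shares with *Aqp8* were 34.1% and 37.8%, and at d8 31% and 10%. At d8c 1 of 20 cells had an *Aqp8* UMI. The means of numbers 1 to 48 and 49 to 96 were 1.18 and 5.13 CPM at d6, and 5.03 and 0.387 CPM at d8. At d6 the shares were thus similar in either number range, but the mean was higher in the higher numbers. The 3 d6 cells at 20 CPM or more of *Aqp8* were numbered 75, 77 and 79, so that higher mean rests largely on neighbouring numbers. *Srgn* and *Wfdc1* had their highest d6 cells at numbers 77 (184 CPM) and 78 (337 CPM). At d8 both the share and the mean were higher in the lower numbers, which were also deeper (medians of 691657 and 359096 UMIs).

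A single d6 cell, numbered 75, was the only cell up to d8c with 5 or more members at 20 CPM or more. It held *Srgn* at 147, *Igsf1* at 91.8, *Gpx2* at 79.5, *Aqp8* at 49 and *Wfdc1* at 24.5 CPM, but *Sox17* at 6.12 and *Col1a1* at 5054 CPM. Its depth of 163422 UMIs makes these values between 4 and 24 UMIs each. Its members thus stood beside a fibroblast profile, with *Col1a1* high and *Sox17* low.

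At d12, 6 of 10 members were higher by over 1 than at d0, where 19.8% of 9611 genes were, and *Atp1b1* was lower by over 1 (-2.18), where 16.3% of genes were. The 6 were *Aqp8* (3.82), *Srgn* (3.76), *Gpx2* (3.75), *Epas1* (2.40), *Car4* (2.01) and *Wfdc1* (1.12), and 9 members passed the filter on low values, all but *Igsf1*. The higher count was 3 with a pseudocount of 10 and 4 with thinned counts. Nearly all d12 cells had a UMI of *Aqp8* (66 of 67), *Srgn* (64) and *Gpx2* (64), against 0, 6 and 0 of 72 cells at d0. Their medians at d12 were low, with 9.57 CPM for *Aqp8*, 9.3 for *Srgn* and 10.1 for *Gpx2*. After thinning, 29 of 66 cells had *Aqp8*, 30 had *Srgn* and 26 had *Gpx2*. *Atp1b1*, *Ramp1* and *Igsf1* had a median of 0 at d12.

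The means at d12 rested on a few cells. For *Car4* the mean of 35.3 CPM became 3.53 CPM without its highest cell, and for *Aqp8* 161 CPM became 69.7 CPM. Each cell was therefore placed by its balance of markers, the mean log2(CPM + 1) of the 10 XEN markers minus that of the 10 fibroblast markers. The median balance was -7.10 at d12, -5.65 at d12c early, 3.11 at d12c late and 3.72 at d20. A limit of -3, chosen after seeing the values, left 4 of 67 d12 cells and 3 of 21 d12c early cells above it. The limit marks a range and not a cell type, and the cells of these groups nearest to it lay at -2.35 above and -3.27 below. At d0, 2 of 72 cells also lay above it.

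The 7 cells of d12 and d12c early above the limit expressed the members unevenly. *Gpx2* was at 100 CPM or more in 7 of the 7 (435 to 1906 CPM, median 846 CPM), *Aqp8* in 6 (10.4 to 6197 CPM, median 1001 CPM), and *Srgn*, *Epas1* and *Bex4* in 5 each. *Car4* and *Igsf1* reached 100 CPM in 1 of the 7, with medians of 6.25 and 0 CPM. The d12 cell with the highest balance, 0.17, had 10 members at 20 CPM or more, with *Aqp8* at 6197, *Srgn* at 3296 and *Car4* at 2131 CPM. A further d12 cell had *Gpx2* at 1906 and *Epas1* at 705 CPM beside *Srgn* at 7.35 and *Car4* at 1.47 CPM, with no UMI of *Bex4*, *Ramp1* or *Igsf1*. At d12c late *Car4* was at 100 CPM or more in 16 of 30 cells and *Igsf1* in 11, and at d20 in 25 and 17 of 38 cells. In these few cells *Gpx2* and *Aqp8* were thus high where *Car4* and *Igsf1* mostly were not.

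In the other 81 cells of d12 and d12c early, UMIs of *Aqp8* were found in 79, *Gpx2* in 78, *Srgn* in 76, *Epas1* in 70 and *Car4* in 68. The medians of the 81 and the 7 cells were 9.57 and 1001 CPM for *Aqp8*, 10.4 and 846 CPM for *Gpx2*, 9.3 and 550 CPM for *Srgn*, 3.43 and 187 CPM for *Epas1*, and 1.01 and 369 CPM for *Bex4*. For *Car4* they were 3.79 and 6.25 CPM, so the typical *Car4* level of the 7 cells was also low, and their mean of 328 CPM rests on the cell with 2131 CPM. In the 81 cells *Atp1b1*, *Ramp1*, *Wfdc1* and *Igsf1* had medians of 0, against 58.4, 48.2, 137 and 0 CPM in the 7 cells. The median depth was 929905 UMIs in the 7 cells and 708287 UMIs in the 81. Whether RNA carried over from other cells of the same preparation contributed to these low levels was not tested. *Srgn* went beyond this low level in some of the 81 cells, since 9 had 100 CPM or more, with a highest value of 883 CPM.

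At d12c early, 2 of 10 members were higher by over 1 than at d12, where 2.42% of 9217 genes were, *Car4* (1.14) and *Bex4* (1.07), with 9 members past the filter on low values. Without the 7 cells, a choice made after seeing the data, 0 of 10 were, with *Car4* at 1.00, on the limit, and *Bex4* at 0.25. After thinning 6 were, and 5 with a pseudocount of 0.1, so the count depends on the processing in both directions. *Car4* also turned to the opposite direction, -0.80, when the log2 of mean CPM was used, where the d12 mean of 35.3 CPM rests on the highest cell (3.53 CPM without it).

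Members were counted per cell at a level of 20 CPM or more. At d20 the median was 9 members per cell (4 to 10), and 14 of 38 cells had all 10. At d12c late the median was also 9 (2 to 10), with all 10 in 5 of 30 cells. The lowest d20 cell in marker balance, at -3.09, had 4 members, with *Bex4* at 344 CPM and *Aqp8* at 27, *Car4* at 39.3 and *Wfdc1* at 49.2 CPM. Without it the d20 medians were 569 CPM for *Aqp8* and 379 CPM for *Car4*. A d12c late cell with a balance of -1.64 had 2 members, *Atp1b1* at 255 and *Gpx2* at 45.6 CPM, with *Sox17* at 4.8 CPM. *Bex4* in the former and *Atp1b1* in the latter were thus high in cells where most members were below 20 CPM.

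**Figure D2:**
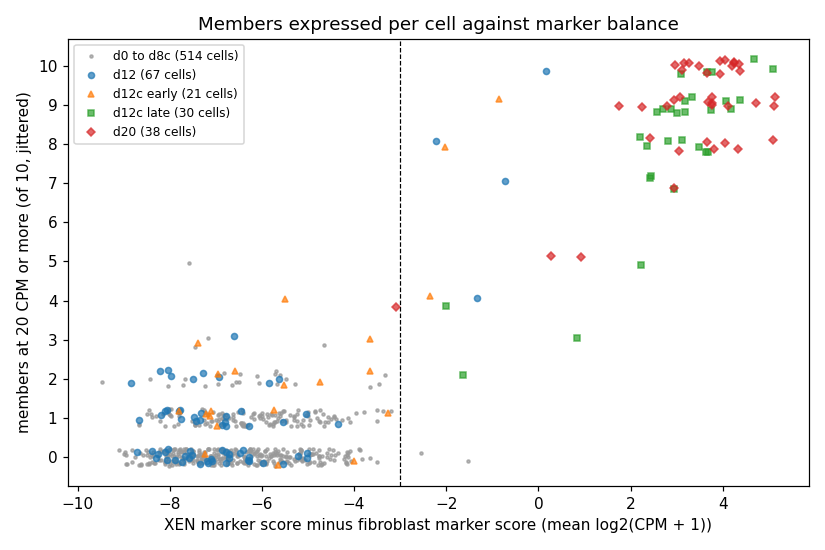
Number of the 10 members at 20 CPM or more in each kept cell, jittered vertically, against the balance of XEN and fibroblast markers in mean log2(CPM + 1). Points are cells by group and the dashed line marks the limit of -3. Most d20 and d12c late cells have 7 or more members, most cells of the other groups have 2 or fewer, and 7 cells of d12 and d12c early lie above the limit.

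Among the 68 cells of d12c late and d20, Spearman correlations of the 45 pairs of members ran from -0.10 to 0.54 with a median of 0.21. The highest were *Aqp8* with *Wfdc1* (0.54), *Srgn* (0.52) and *Igsf1* (0.48). Within d12c late and d20 apart, these were 0.47 and 0.55 with *Wfdc1*, 0.53 and 0.56 with *Srgn*, and 0.27 and 0.53 with *Igsf1*. *Ramp1* and *Bex4* had values near 0 with *Aqp8* and with *Wfdc1*. *Ramp1* and *Srgn* had 0.77 over the 30 cells of d12c late and 0.11 over the 38 cells of d20. *Aqp8* and *Ramp1* had 0.31 and -0.24, so single pairs differed between the groups. The points share library and depth, and weak values in sparse counts are no finding.

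Over the 13 group means of log2(CPM + 1), the genes most like each member were sought by Pearson correlation among 11419 genes, and these means include the groups whose high level chose the members. *Aqp8* was most like *Srgn* (0.997), *Podxl* (0.995) and *Cldn6* (0.992), and *Srgn* like *Aqp8*, *Cyp26a1* (0.993) and *S100g* (0.993). *Car4* was most like *Gata5* (0.994), *Cyp26a1* (0.993) and *Pls1* (0.992). *Wfdc1* was most like *Aifm3* (0.998), *Lsr* (0.995) and *Adora1* (0.993), and *Igsf1* like *Pgc* (0.999), *Fam187b* (0.998) and *Smim10l2a* (0.996). *Gpx2* followed *Alpl* (0.993), *Spint2* (0.988) and *Srgn* (0.985), and *Epas1* followed *Podxl* (0.987), *Aqp8* (0.986) and *Srgn* (0.983). *Atp1b1*, with its level at d0, was most like *Flt1* (0.986), *Ramp1* (0.981) and *Tbrg1* (0.975). *Ramp1* was most like *Tdh* (0.991), *Shtn1* (0.990) and *Scube2* (0.989), and *Bex4* like *Gsx2* (0.989) and *Tdh* (0.983).

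The relatives of each member were given by lists of gene families, where higher and lower mean by over 2 at d20 against d0. Of all 9352 genes in this contrast 4.38% were higher and 8.92% lower, and the members, chosen for their level, are among the higher genes of each list. Of 11 aquaporins 4 passed the filter, 2 of them higher (*Aqp8* and *Aqp11*), and none was lower. *Aqp11* had a mean of 1.31 CPM at d0 and 62 CPM at d20. *Aqp1*, a water channel of many cell types, had 322 CPM at d5 and 310 CPM at d12c late but 23.1 CPM at d20, and *Aqp3* had 6.74 CPM at d20. *Aqp1* thus had a lower mean at d20 than at d12c late, and *Aqp8* a higher one.

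Of 16 carbonic anhydrases 4 passed the filter, with *Car4* and *Car2* higher. The cytosolic *Car2* had a mean of 1.65 CPM at d0, 91.7 CPM at d1 and 139 CPM at d20, so its mean was above that of d0 from d1 on, where *Car4* had no UMI. *Car12* and *Car13* had 17.5 and 11.1 CPM at d20. Among sodium pump genes *Atp1b1* and *Fxyd2* were higher and *Fxyd5* was lower. *Fxyd2*, a small regulatory subunit, had a mean of 0.263 CPM at d0 and 82.9 CPM at d20, and *Fxyd5* had 100 and 6.05 CPM. *Atp1b3*, another beta subunit, stayed between 91.7 and 147 CPM in all 13 groups, through the interval in which *Atp1b1* was low.

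Of 10 genes of calcitonin family receptors and ligands 5 passed the filter, with 2 higher (*Ramp1* and *Ramp2*) and 3 lower (*Ramp3*, *Adm* and *Calcb*). *Ramp3* went the other way from *Ramp1*, with 32.5 CPM at d0, 1391 CPM at d12, 302 CPM at d12c late and 12.5 CPM at d20. *Adm*, which encodes the ligand adrenomedullin, had 141 CPM at d0, 2701 CPM at d12 and 4.88 CPM at d20, and *Calcb* had 8.52, 359 and 0 CPM. *Ramp2* had 3.96 CPM at d0 and 107 CPM at d20. *Calcrl*, the receptor partner, had 6.71 CPM at d0, 1.48 CPM at d12c late and no UMI in the 38 cells of d20, with a limit by the rule of 3 cells of 7.89%. The XEN-like cells thus held *Ramp1* and *Ramp2* while *Calcrl* was not detected at d20.

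Of 12 genes of whey acidic protein relatives 11 were in the table and 1, *Wfdc1*, passed the filter. *Slpi* had 410 CPM at d12 and 0.853 CPM at d20, and *Wfdc2* and *Wfdc3* had no UMI at d20. Of 11 proteoglycans 9 passed, with *Srgn* higher and *Sdc2*, *Gpc1* and *Gpc4* lower. *Sdc2* had 145 CPM at d0 and 18.6 CPM at d20, *Gpc1* 16.6 and 7.86 CPM, and *Gpc4* 67.6 and 4.2 CPM. *Gpc3* had 283 and 459 CPM, *Sdc1* 80.6 and 136 CPM, and *Sdc4* 108 and 51.5 CPM. *Srgn* was thus the single gene of the list that was higher by over 2.

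Of 8 glutathione peroxidases 6 passed, with 2 higher (*Gpx2* and *Gpx3*) and 2 lower (*Gpx7* and *Gpx8*). The secreted *Gpx3* had 26.6 CPM at d0, 110 CPM at d12c late and 411 CPM at d20, the opposite order of *Gpx2* between the XEN-like groups. *Gpx8* had 533 and 111 CPM at d0 and d20 and *Gpx7* 127 and 24.8 CPM, and both proteins reside in the endoplasmic reticulum. *Gpx1* (463 and 304 CPM) and *Gpx4* (655 and 590 CPM) were expressed throughout. Of 11 Bex and Tceal genes 10 were in the table and 7 passed, with *Bex4* and *Bex1* higher. *Bex1* had 131 CPM at d0, 990 CPM at d12c late and 755 CPM at d20, *Bex2* 82.3, 152 and 142 CPM, and *Tceal8* 531, 188 and 326 CPM. Of 10 HIF pathway genes 8 passed and *Epas1* alone was higher. *Hif1a* had 66 CPM at d0, 231 CPM at d12 and 75.3 CPM at d20, *Egln1* had 15.1, 9.37 and 50.2 CPM, and *Egln2* had 50.2, 56.2 and 60.4 CPM.

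Promoter windows of 300 bases around the gene start were taken from RefSeq on GRCm38.p6, where 8 of the 10 members had an entry. *Wfdc1* and *Epas1* had none. Motifs were searched on both strands, and the share of 27025 windows of all genes is given beside the members. GATAA, the core bound by GATA factors, was in 0 of 8 members' windows (25.8% of all) and ACAAT, a core bound by SOX factors, in 1 (31.6%). TATAAA was in 2 (14.2%), GGGCGG in 2 (35.9%) and ACGTG, the core bound by HIF factors and, as part of CACGTG, by other factors, in 3 (19.7%). For *Srgn* and *Igsf1*, which have several windows, the one listed at the top was counted. Of the 3 further windows, the second of *Srgn* held ACGTG, and the second of *Igsf1* held GATAA and GGGCGG. These are counts of letters in short windows and say nothing on binding.

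The 3 windows listed at the top that held ACGTG are printed in lower case with this motif in capitals, because these are the core letters bound by HIF factors, of which the member *Epas1* encodes one. They lie at chr7:123462044-123462343 for *Aqp8*, chr11:84957504-84957803 for *Car4* and chrX:136138746-136139045 for *Bex4*, all on the plus strand. In *Aqp8* and *Bex4* the matches of both strands overlap in 1 CACGTG.
*Aqp8*: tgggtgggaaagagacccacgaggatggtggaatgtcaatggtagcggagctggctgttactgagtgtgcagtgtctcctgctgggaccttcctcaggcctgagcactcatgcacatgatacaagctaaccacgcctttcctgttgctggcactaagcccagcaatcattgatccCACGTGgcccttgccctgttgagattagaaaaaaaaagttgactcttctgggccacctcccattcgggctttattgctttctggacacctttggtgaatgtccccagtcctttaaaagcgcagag
*Car4*: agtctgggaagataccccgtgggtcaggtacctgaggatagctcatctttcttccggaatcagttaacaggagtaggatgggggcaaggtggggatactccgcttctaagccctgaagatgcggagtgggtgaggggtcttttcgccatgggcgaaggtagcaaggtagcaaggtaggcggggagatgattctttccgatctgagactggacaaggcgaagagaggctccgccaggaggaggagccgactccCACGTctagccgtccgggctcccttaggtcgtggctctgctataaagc
*Bex4*: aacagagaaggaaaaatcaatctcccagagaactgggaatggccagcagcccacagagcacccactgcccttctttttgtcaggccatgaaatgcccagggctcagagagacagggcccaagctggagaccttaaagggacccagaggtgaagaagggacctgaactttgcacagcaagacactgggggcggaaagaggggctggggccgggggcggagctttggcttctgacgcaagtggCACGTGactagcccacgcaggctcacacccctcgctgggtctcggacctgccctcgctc
The window of *Gpx2*, with 0 CG dinucleotides against a median of 7 over all windows, and that of *Atp1b1*, with 31, lay at opposite ends of the members.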

How the data were processed

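The deposited values are counts of UMIs per gene and cell, so copies of 1 molecule made during amplification count once. The authors used the transcripts of mm9 as their reference. The aligner is not given in the sources used here. All 808 cells were taken as 1 sample, since their names show no batch. Repeated names (4 entries, dates in place of gene names) were left out, cells in which fewer than 4000 genes were detected were dropped, and CPM were computed without ERCC RNAs (5.43% of the counts of kept cells). The pseudocount was 1. For thinned shares, 23 kept cells below 50000 UMIs were left out. Doublets were not called, since the cells were picked by hand.

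The members and gene lists were chosen with earlier results of these data known. Named genes were the 10 members, of each list the 3 other genes with the highest mean at d20 and those at 20 CPM or more in some group that differed by over 2 between d20 and d0, the 3 genes most like each member, and markers. Some genes that this rule names are not reported here. *Calcrl* and single cells were named after their values were seen. Alternatives covered the filter on cells, scaling, pseudocount, averaging, thinning, limits and the highest cell.

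Gene positions follow GENCODE M1 on the NCBIM37 build. Python 3.11.15, numpy 2.4.6, pandas 2.3.3 and scipy 1.17.1 were used, and edgeR 4.0.16 and DESeq2 1.42.0 under R 4.3.3 gave alternative scaling factors. The comparison of groups was tested on simulated data, and the outcome is not reported here.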

Additional observations from a re-analysis of the deposited data

Results flagged for a closer look

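Cells with fewer than 4000 detected genes enter no comparison, and the members were found there too. In the 24 d12c cells numbered 25 to 48, all left out with a median of 394 UMIs per cell, the members together made up 2234 CPM of the pooled UMIs, from 25 UMIs in all. In the 34 d20 cells left out, with a median of 60536 UMIs, they made up 4883 CPM. The 18 d12c late cells left out, with a median of 12582 UMIs, gave 2506 CPM. The 12 d0 cells left out gave 35.5 CPM. In the kept cells the pooled value was 4447 CPM at d20, 4736 CPM at d12c late and 548 CPM at d12. At d12c late the value was thus lower in the cells left out than in those kept.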

How the results depend on the processing

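Under each of 13 alternatives run for these counts, 10 of 10 members were higher by over 2 at d20 than at d0, and at d12c late against d12 the count ran from 8 (pseudocount of 10) to 10 (thinned counts). Both contrasts enter the choice of the members, so nothing is read from this agreement. The alternative without the filter on low values could not change these counts, since they do not use that filter. Of 420 alternative values for member differences past their limit, those of both contrasts among them, 419 had the same sign and 392 stayed past the limit. The exception in sign was *Car4* between d12c early and d12, at -0.80 with the log2 of mean CPM. Scaling by TMM and DESeq2 factors moved the median of all genes between d20 and d0 by -0.14 and -0.15, ERCC in the library size by -0.14 and thinning by 0.17. Thinning moved it by 0.29 between d12c late and d12. With cells of at least 6000 genes, several means were lower and others higher. At d20 the means were 544 CPM for *Aqp8* (1354 as reported), 435 for *Car4* (772) and 349 for *Ramp1* (535). For *Gpx2* the d20 mean was 138 CPM (305) and for *Epas1* 73.8 CPM (135). The *Car4* mean at d12c late was 169 CPM (490). Higher at d12c late were *Srgn* at 1661 CPM (1214), *Gpx2* at 1173 CPM (878) and *Ramp1* at 795 CPM (610), and at d20 *Bex4* at 440 CPM (394).

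The number of members higher by over 1 at d12c early than at d12, 2 as reported, was 1 without a filter on cells, with at least 6000 genes or without the highest cell, 0 with a pseudocount of 10, 5 with a pseudocount of 0.1 and 6 after thinning. It was 0 without the cells whose markers go against their group, an alternative chosen after seeing the data. At d20 against d12c late the higher count of 4 was 1 with at least 6000 genes and 2 with the log2 of mean CPM, and the lower count of 1 was 2 with at least 6000 genes. At d12 against d0 the higher count of 6 was 3 with a pseudocount of 10 and 4 after thinning. At d8 against d0 the higher count of 0 was 1 with a pseudocount of 0.1 and 2 with the log2 of mean CPM. The lower count of 2, added after seeing the data, was 1 without a filter on cells and with a pseudocount of 10, and 3 with the log2 of mean CPM, where *Bex4* was at -1.21. Of the 5 members at 5 CPM up to d8c, 2 reached 20 CPM. The 1 early cell with 5 or more members was 0 with ERCC in the library size, without the highest cell and at 100 CPM. The causes were not tested.

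Number ranges and time points cannot be told apart from batches. The d20 and d12c late cells were the shallowest, so a zero in them limits the level less than a zero at d12.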
